A study of Homo sapiens with 12 samples.

Results

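The 10 genes described here, CITED2, CITED4, WSB1, SIAH2, BHLHE40, BHLHE41, HEY1, HES1, ID1 and ID2, are feedback regulators of the hypoxia response and helix-loop-helix repressors, taken by their identifiers from the 60666 genes counted in each library. They were measured in Huh7, an established human hepatocellular carcinoma cell line, by sequencing the 3′ ends of transcripts. The 4 groups were DMSO alone for 24 h, 25 µM Molidustat for 24 h, DMSO alone for 48 h and 25 µM Molidustat for 48 h, with 3 libraries in each. Molidustat is an inhibitor of the prolyl hydroxylases, all cells were grown in the same high-glucose medium, and the labels name no genetic change. The study speaks both of biological replicates and of triplicate RNA extractions, so p-values may measure only the spread between extractions.

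HIF is a transcription factor made of an oxygen-labile α subunit and a stable partner. Prolyl hydroxylases mark the α subunit for VHL, the receptor of a ubiquitin ligase, and when they are blocked the α subunit accumulates, binds CBP or p300 and activates genes through hypoxia response elements. Some of these genes act back on the pathway. CITED2 and CITED4 compete with HIF-α for CBP and p300, SIAH2 directs the degradation of prolyl hydroxylases, and WSB1 directs that of VHL. BHLHE40 and BHLHE41 are basic helix-loop-helix repressors that bind E-boxes and act on the circadian clock. HEY1 and HES1 are repressors best known as effectors of Notch, while ID1 and ID2, classical targets of BMP signalling, lack a DNA-binding region and hold E proteins away from DNA.

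The libraries held from 1499273 to 9179389 counts on genes. DMSO 48 h replicate 2 stood apart from the other libraries. It was the smallest, the share of its reads outside any feature was 50.4%, compared with 17.1 to 25.6% elsewhere, and its log2 CPM correlated with theirs at r = 0.71 to 0.78, while the other 11 libraries correlated with each other at 0.86 to 0.96. Values that this library moved strongly are therefore also given without it. The hepatocyte identity of the line was visible in the counts, since all 10 hepatocyte markers were detected in every library, with AFP the most abundant. Their summed level was between 9089 CPM in DMSO 48 h replicate 2 and 29553 CPM. Of the markers of other cells, CD3E and VWF had no count in any library, and the summed levels did not exceed 10.3 CPM for 4 leukocyte genes, mostly CD14 in 10 of 12 libraries, 9.20 CPM for 4 fibroblast genes and 6.45 CPM for 4 endothelial genes. In bulk RNA, fewer cells that express a gene and less RNA per cell cannot be told apart.

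Molidustat raised BHLHE40, BHLHE41 and CITED2 when its effect was averaged over 24 h and 48 h, an average chosen after the data were seen. The rises were 4.69-fold for BHLHE40, 12.1-fold for BHLHE41 and 2.90-fold for CITED2. That of BHLHE41 ran from 3.27 to 5.48 on the log2 scale as single libraries were left out. Over the 12 fits that left out a library, the call was kept in 12 for BHLHE40, 6 for CITED2 and 4 for BHLHE41. For these 3 genes, every treated library exceeded every control of its time, which held for 2.2% of all genes. Over all genes, edgeR called 0.96% higher on average. At either time alone edgeR called none of the 10, beside 0.231% and 0.21% of all genes. DESeq2 called 2 at 24 h (0.83% of all genes) and 4 at 48 h (1.25%), and limma-voom 1 (0.448%) and 5 (1.71%). All 10 changes fitted by edgeR were positive at both times, as were 51.5% and 50.4% of all genes tested. The 10 genes were, however, chosen with earlier results of these data known. Leaving out single libraries turned the sign of CITED4, HES1 and ID1 at 24 h and of CITED4 and SIAH2 at 48 h. WSB1 and ID2 had averaged log2 fold changes of 0.66 and 0.93 and were not called, and CITED4 did not separate from its controls at either time.

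The stretches before the annotated starts of the 3 genes that rose and of WSB1 are shown with their matches to the core of the hypoxia response element, ACGTG or GCGTG on either strand, in capitals. Such a match does not set them apart, since all 9 genes with a RefSeq window hold at least 1, CITED4 with 2 among them. They are RefSeq sequences on GRCh38.p14, written 5′ to 3′ on the strand of the gene, and end before the first transcribed base of both RefSeq and GENCODE 44. BHLHE40 is at chr3:4979187-4979436 on the plus strand, BHLHE41 at chr12:26125038-26125287 on the minus strand, CITED2 at chr6:139374649-139374898 on the minus strand and WSB1 at chr17:27293864-27294075 on the plus strand.
BHLHE40: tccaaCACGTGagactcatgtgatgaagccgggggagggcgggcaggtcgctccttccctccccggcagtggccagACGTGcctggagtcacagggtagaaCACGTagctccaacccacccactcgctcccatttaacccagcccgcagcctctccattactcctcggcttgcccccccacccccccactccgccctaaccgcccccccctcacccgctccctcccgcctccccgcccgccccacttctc
BHLHE41: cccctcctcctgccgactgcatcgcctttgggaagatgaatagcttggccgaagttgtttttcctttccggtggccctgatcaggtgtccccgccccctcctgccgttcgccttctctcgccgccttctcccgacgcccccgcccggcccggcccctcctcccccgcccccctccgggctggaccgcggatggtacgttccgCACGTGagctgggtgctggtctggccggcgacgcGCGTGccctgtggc
CITED2: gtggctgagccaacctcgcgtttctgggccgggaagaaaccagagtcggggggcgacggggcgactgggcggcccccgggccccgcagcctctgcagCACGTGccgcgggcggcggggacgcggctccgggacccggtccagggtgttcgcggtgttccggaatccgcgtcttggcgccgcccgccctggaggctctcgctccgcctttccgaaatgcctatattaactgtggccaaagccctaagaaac
WSB1: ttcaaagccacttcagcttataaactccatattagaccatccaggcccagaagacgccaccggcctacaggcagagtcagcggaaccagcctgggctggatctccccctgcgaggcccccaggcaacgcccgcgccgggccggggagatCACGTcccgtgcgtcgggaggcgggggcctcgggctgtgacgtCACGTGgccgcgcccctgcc

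All 4 stretches hold the E-box CACGTG, the palindrome that BHLHE40 and BHLHE41 proteins themselves bind and that contains ACGTG on both strands. This describes the stretches chosen for display. The windows of CITED4, HES1, ID1 and ID2 hold no CACGTG, nor do those at the other annotated starts of CITED2. ID2, not shown, had a larger averaged log2 fold change (0.93) than WSB1 (0.66). BHLHE40 has 3 separate stretches of capitals, WSB1 and BHLHE41 have 2, and CITED2 has 1. In windows from 250 bases before to 50 after the start, ACGTG was found for 7 of the 9 genes with a RefSeq window and in 21.4% of all 35116 windows. For GCGTG the numbers were 6 of 9 genes and 36.5% of windows. CACGTG was found for 5 of 9 genes, namely BHLHE40, BHLHE41, CITED2, SIAH2 and WSB1, and in 7.26% of windows. TGGGAA, the core bound by the Notch factor RBPJ, was found for 2 of 9 genes, HES1 with 2 matches and BHLHE41 with 1, and in 24.0% of windows. CITED2 has 3 annotated starts and so had 3 chances of a match, and a match is a sequence description, not a bound site.

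BHLHE40 (ENSG00000134107, chr3:4979437-4985323, GRCh38, plus strand), also known as DEC1, showed the clearest response. In DMSO alone at 24 h its level was 13.1, 8.86 and 2.89 CPM (counts scaled to a common library size, per 1e6, by TMM) in replicates 1 to 3, and with Molidustat 40.2, 34.5 and 38.3 CPM. At 48 h it was 6.37, 2.13 and 10.9 CPM in DMSO and 35.5, 28.3 and 40.03 CPM with Molidustat. All treated libraries were above all controls, and the treated means of 37.6 ± 2.89 CPM (SD, n = 3) at 24 h and 34.6 ± 5.91 CPM at 48 h differed by less than the SD at 48 h. The log2 fold change was 2.19 (SE 0.53) at 24 h and 2.27 (SE 0.53) at 48 h, with adjusted p = 0.157 and 0.124. Averaged over both times it was 2.23 (SE 0.37, adjusted p = 0.00582 by edgeR), and this call held with each of the 12 libraries left out in turn. Without DMSO 48 h replicate 2 the 24 h effect of 2.21 was called as well (adjusted p = 0.0207), while that at 48 h, 1.99, was not (adjusted p = 0.130). At 48 h it was called without DMSO 48 h replicate 3 (2.80, adjusted p = 0.0433).

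BHLHE41 (ENSG00000123095, chr12:26120030-26125037, minus strand), or DEC2, is the close relative of BHLHE40, and here it was near the limit of counting without the drug. DMSO alone gave 4, 0 and 0 counts at 24 h and 14, 0 and 9 counts at 48 h, against 26, 36 and 32 and then 19, 25 and 68 counts with Molidustat. As levels these were 0.919, 0 and 0 CPM and 9.32, 4.37 and 6.15 CPM at 24 h. At 48 h they were 1.898, 0 and 0.930 CPM in DMSO and 4.27, 10.7 and 12.8 CPM with Molidustat. No control library reached the lowest treated one. A count of 0 in DMSO 48 h replicate 2 allows up to 3.19 CPM at that depth, by a limit of 3 counts, a limit close to the lowest treated level. Fitted log2 fold changes were 4.21 (SE 1.16, adjusted p = 0.298) at 24 h and 2.98 (SE 1.03, adjusted p = 0.233) at 48 h. The 24 h value ran from 3.58 to 8.01 as single libraries were left out, the highest without DMSO 24 h replicate 1, which held all 4 control counts. In the same fits the 48 h value ran from 2.67 to 3.67. The average was 3.60 with a 95% interval of 1.95 to 5.25 (adjusted p = 0.0339). The size of this rise is uncertain, and the call was kept in 4 of the 12 fits that left out a library, among them the one without DMSO 48 h replicate 2 (3.45, adjusted p = 0.0195).

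CITED2 (ENSG00000164442, chr6:139371807-139374648, minus strand), which displaces HIF-α from CBP and p300, was the best counted of the genes that rose, with 13634 counts in all. At 24 h its level was 92.3, 128 and 87.4 CPM in DMSO and 205, 423 and 219 CPM with Molidustat. At 48 h it was 160.5, 49.0 and 138 CPM in DMSO and 329, 238 and 506 CPM with Molidustat. The groups did not overlap at either time, but the treated libraries of a group varied widely among themselves, with means of 283 ± 122 CPM and 358 ± 136 CPM (SD, n = 3). The fitted log2 fold change was 1.46 (SE 0.44, adjusted p = 0.387) at 24 h, 1.61 (SE 0.45, adjusted p = 0.191) at 48 h and 1.54 (SE 0.31, adjusted p = 0.0241) on average. Without DMSO 48 h replicate 2, the lowest control, the effects were 1.49 (adjusted p = 0.0304, called) at 24 h, 1.25 (adjusted p = 0.263) at 48 h and 1.37 (adjusted p = 0.00364, called) on average. The averaged call was lost without any 1 of 6 libraries, the 3 DMSO 24 h libraries, Molidustat 24 h replicate 2 and Molidustat 48 h replicates 1 and 3, where adjusted p reached at most 0.106.

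CITED4 (ENSG00000179862, chr1:40861054-40862363, minus strand), which shares the CBP and p300 binding of CITED2, showed no such pattern. Its level was 23.2, 23.1 and 6.40 CPM in DMSO and 20.1, 24.6 and 10.8 CPM with Molidustat at 24 h, and 17.8, 18.1 and 30.3 CPM against 24.3, 31.7 and 20.1 CPM at 48 h. The groups overlapped at both times. For CITED4 the log2 fold change was 0.08 with a 95% interval of -0.96 to 1.13 at 24 h and 0.18 with an interval of -0.86 to 1.22 at 48 h, so that these libraries leave room for a log2 change near 1 in either direction. The sign of CITED4 also turned when single libraries were left out.

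WSB1 (ENSG00000109046, chr17:27294076-27315926, plus strand) is the substrate receptor of a ubiquitin ligase that acts on VHL. Its level at 24 h was 68.9, 90.9 and 104 CPM in DMSO and 162, 226 and 151 CPM with Molidustat, without overlap. At 48 h the DMSO libraries read 78.3, 177 and 81.5 CPM and the Molidustat libraries 153, 125 and 130.0 CPM. Here DMSO 48 h replicate 2 was above all treated libraries, while the other 2 controls were below all of them. For WSB1 the log2 fold change was 1.03 (SE 0.35, adjusted p = 0.585) at 24 h and 0.30 (SE 0.35, adjusted p = 0.786) at 48 h. Without that library it was 1.05 (adjusted p = 0.0581) and 0.75 (adjusted p = 0.535), and the average went from 0.66 (adjusted p = 0.324) to 0.90 (adjusted p = 0.0145), which passes the test but not the log2 fold change of 1 asked of a call.

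SIAH2 (ENSG00000181788, chr3:150741125-150763477, minus strand) encodes the ubiquitin ligase that acts on prolyl hydroxylases. It read 21.6, 20.8 and 15.3 CPM in DMSO and 25.5, 34.2 and 29.4 CPM with Molidustat at 24 h, where the groups did not overlap. At 48 h, 24.3, 19.2 and 25.0 CPM in DMSO stood against 38.9, 17.2 and 26.3 CPM with Molidustat, and 1 treated library was below all controls. Its log2 fold change was 0.63 (95% interval -0.15 to 1.41) at 24 h and 0.26 (-0.53 to 1.04) at 48 h, with adjusted p = 0.999 and 0.830.

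HEY1 (ENSG00000164683, chromosome 8, minus strand) was counted sparsely, with 297 counts in all. The DMSO libraries had 0, 1 and 21 counts at 24 h and 18, 14 and 0 at 48 h, and the Molidustat libraries 18, 93 and 34 and then 48, 15 and 35. The levels at 24 h were 0, 0.385 and 4.34 CPM in DMSO against 6.45, 11.3 and 6.54 CPM with Molidustat. At 48 h they were 2.44, 14.9 and 0 CPM against 10.8, 6.43 and 6.58 CPM. The groups did not overlap at 24 h, and at 48 h DMSO 48 h replicate 2 alone exceeded the treated libraries. The 48 h value was 0.73 with this library and 2.71 without it on the log2 scale, with adjusted p = 0.871 and 0.774. Leaving out single libraries moved this value from 0.038 to 2.71. At 24 h the log2 fold change was 2.28 (95% interval -0.56 to 5.12, adjusted p = 0.999), and it ran from 1.70 to 5.49 as single libraries were left out, the highest without DMSO 24 h replicate 3. The averages with and without DMSO 48 h replicate 2 were 1.51 (adjusted p = 0.583) and 2.49 (adjusted p = 0.216). Over all fits that left out a library the average ran from 1.16 to 3.11. PINK1, a mitophagy kinase gene described as repressed by HEY1, had a log2 fold change of -0.44 (SE 0.42) at 24 h and -0.25 (SE 0.43) at 48 h, with adjusted p = 0.999 and 0.863.

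HES1 (ENSG00000114315, chr3:194136148-194138732, plus strand) overlapped at 24 h, with 146, 131 and 114 CPM in DMSO and 210.1, 118 and 126 CPM with Molidustat. At 48 h it read 131, 66.0 and 138 CPM in DMSO and 209.6, 150.1 and 224 CPM with Molidustat, without overlap. Its log2 fold change was 0.21 (SE 0.34, adjusted p = 0.999) and 0.79 (SE 0.35, adjusted p = 0.338). Without DMSO 48 h replicate 2, the lowest control, the 48 h value was 0.52 (adjusted p = 0.820).

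ID1 (ENSG00000125968, chr20:31605283-31606515, plus strand) had 500.2, 461 and 469 CPM in DMSO and 411, 1430.3 and 294 CPM with Molidustat at 24 h. Of these treated libraries 2 were below all controls and 1 was far above them, so the log2 fold change of 0.58 (SE 0.54, adjusted p = 0.999) rested on Molidustat 24 h replicate 2 and was -0.44 without it. At 48 h ID1 read 373, 104 and 376 CPM in DMSO and 401, 380.1 and 599.6 CPM with Molidustat, a gap of a few CPM between the highest control and the lowest treated library. The log2 fold change was 0.69 (SE 0.54, adjusted p = 0.655), and 0.29 (adjusted p = 0.994) without DMSO 48 h replicate 2.

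ID2 (ENSG00000115738, chr2:8678845-8684461, plus strand) was more even between libraries. At 24 h it read 144, 133 and 163 CPM in DMSO and 262, 157 and 263 CPM with Molidustat, where 1 treated library fell among the controls. At 48 h, 76.4, 76.7 and 142 CPM in DMSO stood against 217, 193 and 284 CPM with Molidustat, and all treated libraries were higher. The log2 fold change was 0.63 (SE 0.34, adjusted p = 0.999) at 24 h, 1.23 (SE 0.34, adjusted p = 0.191) at 48 h and 0.93 (SE 0.24, adjusted p = 0.0993) on average. Without DMSO 48 h replicate 2 the average was 0.85 (adjusted p = 0.0437), past the test and under a log2 fold change of 1, and without DMSO 48 h replicate 3 the 48 h effect was 1.61 (adjusted p = 0.0488, called) and the average 1.12 (adjusted p = 0.0414, called).

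Counted over the 10 genes, edgeR called 0 at 24 h, where 0.231% of the 14274 genes tested were called higher, and 0 at 48 h, where 0.21% were. The averaged effect called 3 of 10, against 0.96% of all genes. At an unadjusted p under 0.05, 4 of 10 were higher at 24 h (BHLHE40, BHLHE41, CITED2 and WSB1) against 3.73% of all genes, and 5 of 10 at 48 h (BHLHE40, BHLHE41, CITED2, ID2 and HES1) against 4.53%. All 3 treated libraries exceeded all 3 controls in 6 of 10 genes at 24 h (7.26% of all genes), in 6 of 10 at 48 h (9.96%) and in 3 of 10 at both times (2.2%). Without DMSO 48 h replicate 2 the 48 h count was 8 of 10, the additions being WSB1 and HEY1, but with 2 controls no overlap is easier to reach, and 13.7% of all genes met this rule. The median log2 fold change of the 10 was 0.83 at 24 h and 0.76 at 48 h, beside 0.02 and 0.01 over all genes.

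Calls at a single time depended on the tool and on DMSO 48 h replicates 2 and 3. DESeq2 was also the tool of the study, which used version 1.26.0 and reported WSB1 and CITED2 among the genes induced by Molidustat. DESeq2 1.42.0, run here on all 4 groups, called 2 of 10 at 24 h (BHLHE40 and BHLHE41, against 0.83% of all genes). At 48 h it called 4 of 10 (BHLHE40, BHLHE41, CITED2 and ID2, against 1.25%). limma-voom with quality weights called BHLHE40 at 24 h (0.448% of all genes) and these 4 and HEY1 at 48 h (1.71%). For the average, DESeq2 called BHLHE40, BHLHE41 and CITED2 (1.67% of all genes), and limma-voom called them and HEY1 (1.95%). Without DMSO 48 h replicate 2 edgeR called 2 of 10 at 24 h, BHLHE40 and CITED2 (0.728% of all genes), 0 at 48 h (0.315%) and BHLHE40, BHLHE41 and CITED2 on average (1.25%). DESeq2 without that library called BHLHE40, BHLHE41, CITED2 and WSB1 at 24 h (1.3% of all genes) and BHLHE40, CITED2 and ID2 at 48 h (1.04%). Leaving out DMSO 48 h replicate 3 instead, edgeR called BHLHE40 and ID2 at 48 h (0.308% of all genes) and BHLHE40, CITED2 and ID2 on average (0.77%). With no filter on low counts edgeR called BHLHE40 at 24 h (0.366% of all genes) and BHLHE40 and CITED2 at 48 h (0.542%).

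**Figure D1:**
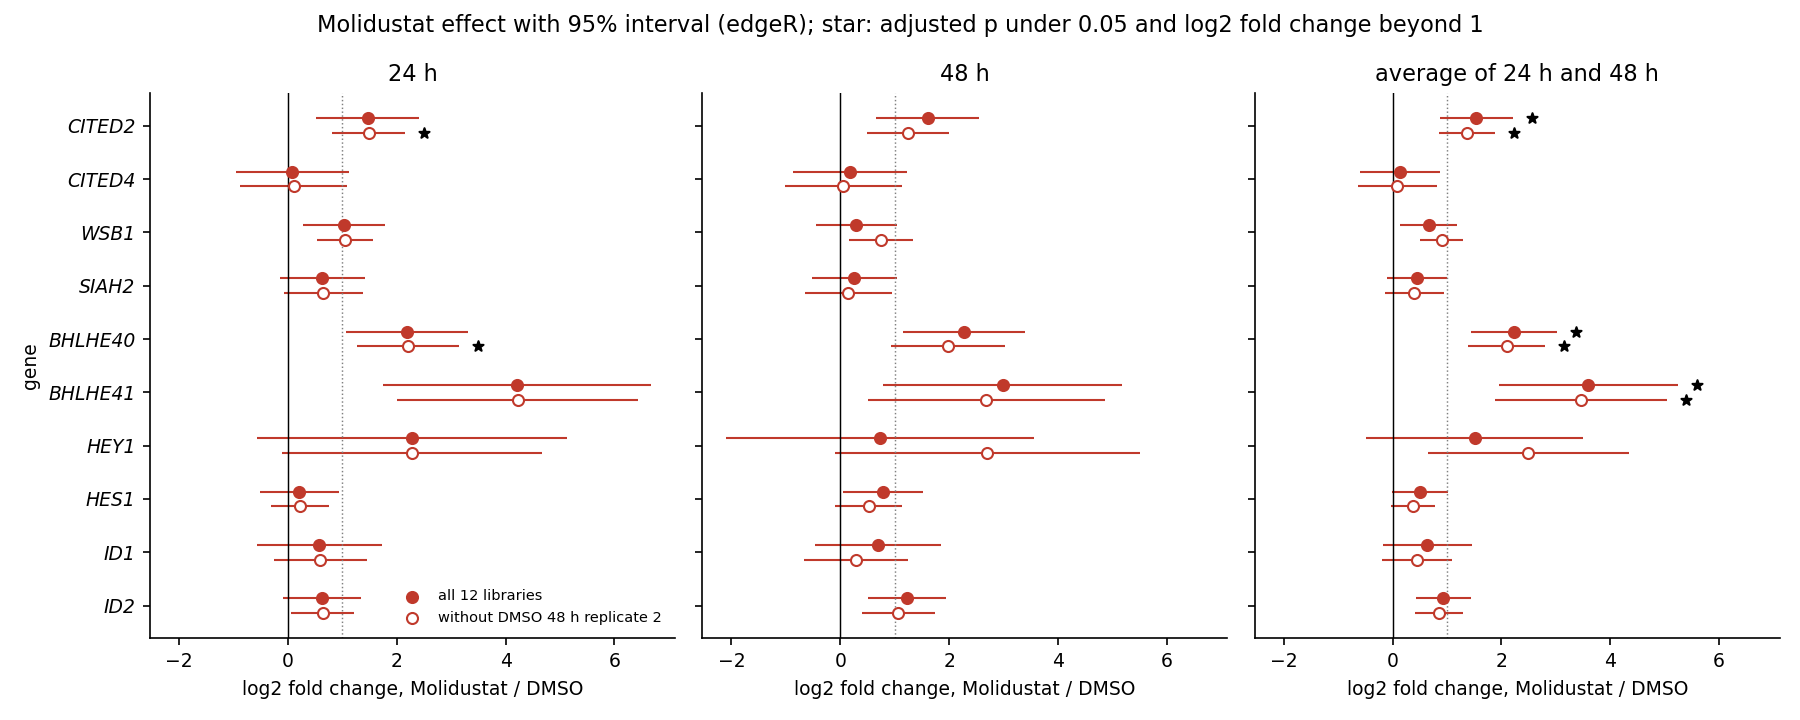
Log2 fold change of each gene, Molidustat over DMSO, at 24 h, at 48 h and averaged over both times, with 95% intervals, from all 12 libraries (filled) and without DMSO 48 h replicate 2 (white). Stars mark an adjusted p under 0.05 with a log2 fold change beyond 1 (dotted line), which with all libraries occur only for the averages of CITED2 (1.54), BHLHE40 (2.23) and BHLHE41 (3.60).

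The 48 h and 24 h libraries were then compared within each treatment to see whether levels drifted with time. In DMSO none of the 10 was called and none had an unadjusted p under 0.05 by edgeR, with 0.00701% of all genes called in either direction, 1162 genes at an unadjusted p under 0.05, and 35 genes called higher and 8 lower by DESeq2. The log2 changes from 24 h to 48 h in DMSO ran from -0.74 (SE 0.54) for ID1 to 1.72 (SE 1.16) for BHLHE41, with HEY1 at 1.51 (95% interval -1.47 to 4.49) and ID2 at -0.57 (SE 0.34). The other 6 lay between -0.21 for HES1 and 0.35 for CITED4. Without DMSO 48 h replicate 2 HEY1 was -0.46 and WSB1 turned from 0.33 to -0.11. Without it BHLHE40 also turned from -0.20 to 0.10 and HES1 from -0.21 to 0.07. With Molidustat again 0 of 10 were called and 0 had an unadjusted p under 0.05, against 0% of all genes called by edgeR, where 654 genes had an unadjusted p under 0.05 and DESeq2 called 7 higher and 5 lower. The changes ran from -0.63 (SE 0.54) for ID1 and -0.40 (SE 0.35) for WSB1 to 0.45 (SE 0.49) for CITED4 and 0.49 (SE 0.93) for BHLHE41. DESeq2 and limma-voom called none of the 10 in either comparison.

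Whether the Molidustat effect itself differed between the times was tested as an interaction. None of the 10 genes was called, with 0% of all genes called (968 had an unadjusted p under 0.05, and DESeq2 called 1 higher and 3 lower), and none of the 10 had an unadjusted p under 0.05 by edgeR. DESeq2 and limma-voom also called none of the 10. The difference, 48 h minus 24 h on the log2 scale, was -0.73 (95% interval -1.78 to 0.31) for WSB1, -1.23 (-4.31 to 1.85) for BHLHE41 and -1.55 (-5.51 to 2.41) for HEY1. It was 0.60 (-0.41 to 1.61) for ID2 and 0.58 (-0.46 to 1.61) for HES1. For BHLHE40 and CITED2 it was 0.09 (-1.45 to 1.62) and 0.15 (-1.16 to 1.46), and for CITED4, ID1 and SIAH2 it was 0.09, 0.11 and -0.37. The difference without DMSO 48 h replicate 2 was -0.29 for WSB1 and 0.42 for HEY1, and it turned negative for BHLHE40 (-0.22), CITED2 (-0.24), CITED4 (-0.05) and ID1 (-0.31). For 6 of the 10 genes the interval reached beyond 1 in both directions, and the effects on WSB1 and ID2 at 24 h and 48 h could not be told apart by this test.

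Genes around the 10 were read from lists of the pathways they belong to. Of 18 well-known HIF targets, 17 were tested, all 17 had a positive change at both times, and 10 were called at 24 h, 6 at 48 h and 13 on average, with median log2 fold changes of 2.48 and 1.76. Genes called at both times included BNIP3 (2.81 and 2.68) and BNIP3L (2.66 and 2.35), mitophagy receptor genes, PGK1, a glycolytic enzyme gene (2.80 and 1.99), and EPO, the erythropoietin gene. EPO had no count in DMSO at 24 h and was at least 112-fold higher with Molidustat, against a limit of 3 counts over the group, while its log2 fold change was 3.81 at 48 h. LDHA (2.48), MXI1 (3.36), P4HA1 (2.13), PDK1 (3.60) and SLC2A1 (1.98) were called at 24 h and not at 48 h, and P4HA2 (1.99) at 48 h and not at 24 h, but the difference between the times passed the edgeR test for no gene. The calls without DMSO 48 h replicate 2 were 13 at 24 h, with P4HA2 among them, and 8 at 48 h, with LDHA and MXI1 among them, and DESeq2 called P4HA2 at 24 h and LDHA and SLC2A1 at 48 h. From 24 h to 48 h in DMSO alone 16 of the 17 changes were positive, with a median of 0.56, beside 51.6% positive and a median of 0.02 over all genes. Of these targets edgeR called none for time in DMSO and DESeq2 called MXI1 and EPO higher, and leaving out DMSO 48 h replicate 2 gave 17 of 18 positive with a median of 0.61. On average NDRG1 (2.36) and KDM3A (1.68) were called besides. The changes of BHLHE40, 2.19 and 2.27, lay within the range of those of the called targets.

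Among 18 genes of the HIF pathway itself, 17 were tested and edgeR called none at either time with all libraries. EGLN1, the main prolyl hydroxylase gene, came nearest, with a log2 fold change of 1.55 (adjusted p = 0.0789) at 24 h and 1.02 (adjusted p = 0.208) at 48 h, and was called on average (1.29, adjusted p = 0.00865). It was also called at 24 h by DESeq2 and, without DMSO 48 h replicate 2, by edgeR (1.56, adjusted p = 0.0130). EGLN3, another prolyl hydroxylase gene and substrate of SIAH2, had 1.05 and 0.63 (adjusted p = 0.999 and 0.848), with 1.71 at 48 h without that library, and EGLN2 -0.46 and -0.03, with -0.44 at 48 h without it. VHL, the substrate of WSB1, had 0.19 (SE 0.56) and -1.60 (SE 0.57, adjusted p = 0.241), but -0.57 (SE 0.41) at 48 h without DMSO 48 h replicate 2. RBX1, a subunit of the VHL ligase, had 0.11 and 0.93. EP300 and CREBBP, the genes of p300 and CBP, had -0.30 and 0.33 at 24 h and -0.27 and -1.04 at 48 h, the latter -0.68 without that library. The list medians were -0.03 and -0.27.

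Of 15 relatives of the 10 genes, 6 were tested. HES4, a repressor of the HES family, was called at 48 h, with 20.7 ± 3.61 CPM in DMSO and 84.3 ± 19.9 CPM with Molidustat (SD, n = 3), a log2 fold change of 2.01 (SE 0.32, adjusted p = 0.0121). At 24 h it was 1.04 (SE 0.32, adjusted p = 0.397), and the groups did not overlap at either time. The others were not called. HES6 had 0.30 and 0.05, SIAH1 -0.54 and 0.57, and ID4 -0.79 and -0.59. WSB2 had 0.00 and -2.08 (SE 0.72, adjusted p = 0.233). The 48 h values without DMSO 48 h replicate 2 were -0.009 for WSB2, 0.19 for SIAH1, -0.12 for HES6 and -0.88 for ID4.

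Clock genes, with which BHLHE40 and BHLHE41 act, were called in neither direction. Of 15 listed 12 were tested, with medians of 0.01 at 24 h and -0.67 at 48 h. PER2 had -0.01 and -1.83 (SE 0.63, adjusted p = 0.233), RORA 3.04 (SE 1.01, adjusted p = 0.552) and -0.08, HLF -2.51 and -0.95 and TEF -0.78 and 1.05. At 48 h, leaving out DMSO 48 h replicate 2 gave -0.28 for PER2, 0.75 for RORA, -1.41 for HLF and 0.68 for TEF. DBP had no count in DMSO at 24 h and had 6 counts in all with Molidustat.

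Of 18 Notch genes 12 were tested and edgeR called none, with medians of 0.33 and -0.72, the latter -0.10 without DMSO 48 h replicate 2. DESeq2 called SOX9 lower at 48 h. The receptor genes NOTCH1 and NOTCH3 had 1.47 and -0.36 at 24 h and -0.64 and 1.86 at 48 h, on few counts. The ligand gene JAG2 had no count in DMSO at 24 h and was at least 4.84-fold higher with Molidustat, with 1.41 at 48 h, and ADAM17, the gene of a Notch-cleaving enzyme, had 0.01 at 24 h and -2.40 (SE 0.69, adjusted p = 0.202) at 48 h, or -0.37 without that library. NOTCH1 at 48 h was -0.28 without it. Of 20 BMP genes 16 were tested and none was called, with medians of 0.15 and -0.20. The receptor gene ACVR1 had 1.16 and 1.03, BMPR1B 1.12 and -4.52 (SE 1.98) on few counts, the coreceptor gene HJV -1.56 and 1.87, and HAMP, the hepcidin gene, 0.10 and 1.47. Of the 3 E proteins that ID proteins bind, TCF3 had 0.23 and 0.38, TCF4 -0.10 and -1.28 and TCF12 -0.21 and 0.06, and none was called. Without that library the 48 h values of TCF4 and TCF12 were -0.06 and -0.26. The hepatocyte markers had medians of 0.45 and 1.04. With all libraries edgeR called none of the 10 at a single time, but TF, the transferrin gene (1.26 and 1.52), and SERPINA1 (1.15 and 1.53) were called on average, and both were called at 24 h and at 48 h without DMSO 48 h replicate 2, where the medians were 0.47 and 0.69. DESeq2 called SERPINA1 at 24 h and TF, SERPINA1 and APOA1 at 48 h. HNF4A had -0.24 and -1.88, the latter -0.05 without that library, and APOA1 0.66 and 1.75. The part of these markers in the results above was not tested. CD14, COL3A1, PDGFRA and PECAM1 were the markers of other cells with enough counts to be tested, and none was called.

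The genes whose levels ran most like those of the 10 were looked up among 9099 genes with a mean of at least 10 CPM, by Pearson's r of log2 CPM over the 12 libraries, with r over 11 libraries, without DMSO 48 h replicate 2, beside it. All such values share the 4 groups and are descriptions. BHLHE40 ran with the glycolytic enzyme genes ENO1 (r = 0.96, and 0.95 over 11) and PKM (0.95 and 0.95). BHLHE41 ran with BNIP3L (0.95 and 0.94) and SPAG4 (0.94 and 0.95), and CITED2 with HPN (0.98 and 0.96) and GAPDH (0.96 and 0.95). WSB1 was closest to AK4 (0.93 and 0.93) and ZHX2 (0.93 and 0.94), and HEY1 to CP, the ceruloplasmin gene (0.91 and 0.89), and ZNF395 (0.87 and 0.86). For the remaining genes the nearest were ANKH and VPS51 for CITED4 (0.92 and 0.84), MFSD10 and LTA4H for SIAH2 (0.82 and 0.82), TSEN34 and KIF12 for HES1 (0.94 and 0.93), SQSTM1 and RHOA for ID1 (0.95 and 0.94) and GADD45B and an unnamed gene, ENSG00000255439, for ID2 (0.90 and 0.87), all over 12 libraries. Among the 10 themselves BHLHE40 and BHLHE41 were the closest pair (0.90 over 12 libraries, 0.88 over 11), followed by CITED2 and BHLHE40 (0.87 and 0.80) and by WSB1 and HEY1 (0.86 and 0.85).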

How the data were processed

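Total RNA of Huh7 cells was made into libraries with the QIAseq UPX 3′ kit. Per the submitters' processing notes, the authors used bcl2fastq 2.17.1.14, cutadapt 1.9.1, STAR 2.7.9a on GRCh38, HTSeq 0.11.2 and DESeq2 1.26.0. What the authors deposited were raw counts, whole numbers for each gene of each library. The annotation release, strand setting and use of molecular identifiers are not given in the sources used here, so limits from counts cover counting error only and overlapping genes may share reads. Lines naming no gene were left out of library sizes.

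Names and positions came from GENCODE 44, promoter windows from RefSeq on GRCh38.p14. The main test was edgeR 4.0.16 under R 4.3.3 (filterByExpr with a minimum count of 10 and a minimum total of 15, TMM, quasi-likelihood test, group means, all 12 libraries in 1 fit). Benjamini-Hochberg adjustment ran over all 14274 genes tested, and a call needed both an adjusted p below 0.05 and an absolute log2 fold change above 1. DESeq2 1.42.0 and limma 3.58.1 (voom with quality weights) were alternatives. The script was checked by simulation, with a log2 effect of 2 planted in 200 of 14274 genes. For 24 h the script recovered 85 of these 200 with 1 false call, and for 48 h 68 with 6 false calls. A missing call at a single time therefore does not exclude an effect of this size. Plots used matplotlib 3.10.9 on Python 3.11.15. The average over both times and DESeq2 without DMSO 48 h replicate 2 were added after seeing the data. The 10 genes and all lists were chosen with earlier results of these data known. From each list the text names genes called in a contrast, the 2 highest and the most negative change per time, and VHL, EGLN1, EGLN3 and PINK1. Some genes that this rule names are not reported here. EP300 and CREBBP were named after their values were seen. HEY1 has no window in the promoter table used here, and proteins were not analysed here. Groups and replicates came from the labels.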

Additional observations from a re-analysis of the deposited data

How the results depend on the processing

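All 10 genes had positive fitted effects of Molidustat at 24 h, 48 h and on average, and no alternative called any of them lower. Against 0 called at 24 h, DESeq2 called 2 (0.83% of all genes), no filter on low counts 1 (0.366%) and limma-voom 1 (0.448%). DESeq2 without DMSO 48 h replicate 2 called 4 (1.3%). Leaving out 1 library gave 0 to 2, with 20 to 111 of all genes called higher. Against 0 at 48 h the same settings called 4 (1.25%), 2 (0.542%), 5 (1.71%) and 3 (1.04%). Leaving out 1 library gave 0 to 2 there, with 13 to 55 of all genes called higher. Against 3 on average, asking for at least 10 counts in every library left 1, CITED2, since BHLHE40 and BHLHE41 were then not tested. In that fit 79 of 7555 genes were called higher. Thinning to the smallest library left BHLHE40 and CITED2 (126 of 11532 genes), with BHLHE41 not tested. Leaving out 1 library gave 1 to 3, with 77 to 190 of all genes called higher. Without DMSO 48 h replicate 3, ID2 stood in place of BHLHE41. Across single genes and alternatives, 201 of 216 values kept direction and side of the threshold at 24 h, 197 of 216 at 48 h, 186 of 206 on average, 192 of 206 for time in DMSO, 195 of 206 for time with Molidustat and 177 of 206 for the difference of the effects. With windows of 200 bases the genes with a match fell from 7 to 6 for ACGTG, from 5 to 4 for CACGTG and from 2 to 1 for TGGGAA, and stayed at 6 for GCGTG. Where a cause is not given, the cause was not tested.

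Signs turned for small effects. With limma-voom ID1 was -0.051 at 24 h and CITED4 was -0.069 at 48 h and -0.012 on average. For time in DMSO, limma-voom gave -0.027 for WSB1, 0.18 for BHLHE40 and -0.89 for HEY1, and DESeq2 without DMSO 48 h replicate 2 gave -0.16, 0.051 and -0.47, and 0.022 for HES1. For time with Molidustat, limma-voom gave 0.033 for ID1 and -0.0011 for ID2. For the difference of the effects, limma-voom gave -0.11 for CITED4, -0.26 for BHLHE40 and 0.87 for HEY1, DESeq2 without DMSO 48 h replicate 2 gave -0.17 for CITED2, -0.16 for BHLHE40, 0.45 for HEY1 and -0.24 for ID1, and thinning to the depth of the smallest library gave -0.035 for ID1.

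Leaving out 1 library at a time moved CITED4 from -0.34 to 0.35, HES1 from -0.095 to 0.36 and ID1 from -0.44 to 0.94 at 24 h. At 48 h CITED4 ran from -0.028 to 0.51 and SIAH2 from -0.082 to 0.48, and on average CITED4 from -0.095 to 0.29. For time in DMSO the ranges were -0.12 to 0.57 for CITED2, -0.065 to 0.61 for CITED4, -0.11 to 0.49 for WSB1, -0.76 to 0.33 for BHLHE40, -0.46 to 4.71 for HEY1 and -0.41 to 0.071 for HES1. With Molidustat they were -0.017 to 0.73 for CITED2, -0.46 to 0.11 for SIAH2, -0.34 to 0.27 for HEY1, -1.02 to 0.36 for ID1 and -0.20 to 0.13 for ID2. For the difference of the effects they were -0.24 to 0.54 for CITED2, -0.18 to 0.49 for CITED4, -0.46 to 0.62 for BHLHE40, -4.76 to 0.42 for HEY1 and -0.31 to 1.10 for ID1.

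Same-numbered libraries deviated together at r = -0.090 to 0.139, and different-numbered ones at -0.158 to 0.144, and not every library correlated best with one of its own number. No pairing was visible in these values, and the labels give only a number. Whether same-numbered libraries shared a culture was not tested. With the replicate number as a block, 0 of the 10 genes were called at 24 h and at 48 h and 2 on average, BHLHE40 and BHLHE41, beside 30, 22 and 112 of all 14274 genes called higher, and HEY1 turned to 0.16 for time with Molidustat and CITED4 to -0.057 for the difference of the effects. Scaling by total counts moved the 48 h median of all genes from 0.01 to 0.13, and all 10 genes stayed above it.

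Over all genes, DESeq2 called 173 higher and 177 lower at 48 h and no filter on low counts 154 and 610, against 30 and 3 in the edgeR test. Without DMSO 48 h replicate 2 DESeq2 called 151 and 24, and edgeR 48 and 5. By edgeR the counts were 55 and 272 without DMSO 48 h replicate 1 and 46 and 152 without replicate 3. BHLHE41 and HEY1 had libraries without a count in DMSO, so their folds are imprecise.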
